A study of Rattus norvegicus with 8 samples.

Results

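The chemokines described here are 9 genes, Ccl2, Ccl3, Ccl4, Ccl5, Ccl19, Cxcl1, Cxcl10, Cxcl12 and Cx3cl1, read by 11 of the 41012 probes besides controls on a rat whole-genome array. The array files give names for 12605 genes, and the members were found by name, with endings for predicted or mapped genes removed and case ignored. Every probe is shown, so Cxcl12 and Cx3cl1 each appear as a pair of probes. Ccl19 was singled out by the study on these same samples, and its direction here is therefore not independent evidence. The same holds for other genes given further below that the study singled out, such as Il1b, Rel, Ptgs2, Icam1, S100a8, Cd8a, Pdgfrb, Snap25 and Camk2a.

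RNA came from CA3 pyramidal neurons of male Sprague-Dawley rats, cut out by laser from frozen 10 µm sections that had been stained with Fluoro-Jade, a dye of degenerating neurons, and cresyl violet. Brains were taken 24 h after moderate fluid percussion injury or sham injury, or from naïve rats that had no treatment. In injured rats, dying neurons were those positive for Fluoro-Jade and surviving neurons were their negative neighbours. About 600 neurons from several rats were pooled for each dying or surviving replicate, and the size of the sham and naïve pools is not given in the sources used here. The 4 groups had 2 pools each, on 8 single-colour arrays. The labels name RiboAmp HS or MessageAMP II for the amplification without tying either kit to a pool.

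Chemokines are small secreted proteins that guide leukocytes, glia and some neurons through G-protein-coupled receptors. Inflammatory ligands such as Ccl2, Ccl3, Ccl4, Ccl5, Cxcl1 and Cxcl10 are induced in injured or infected tissue and draw in monocytes, T cells or neutrophils. Cxcl12 and Cx3cl1 are made in healthy brain, where the membrane-bound Cx3cl1 of neurons is read by the receptor Cx3cr1 on microglia.

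A level is given as log2 of the background-corrected signal over the median of all probes on that array, so that 0 is the array median. A probe was well above background where the scanner software marked it so. Of all probes, 54.7% and 54.6% were well above background on the naïve arrays, 51% and 49.2% on the sham arrays, 71.6% and 66% on the surviving arrays, and 58.7% and 68.3% on the dying arrays. The median signal before scaling was 27.2 and 22.7 on the naïve arrays, 16.5 and 16.4 on the sham arrays, 52.2 and 48.2 for surviving and 19.2 and 52.6 for dying neurons. Dying replicate 1 was dimmer than the other injured arrays. Surviving and dying arrays shared 1 slide and sham and naïve arrays another, and per the file headers the signals of each slide were read with a different protocol of the scanner software, so that against sham the effects of slide, protocol and injury cannot be told apart. Surviving against dying and sham against naïve lie within a slide. With 2 pools per group, p-values measure the spread between pools and not between animals. In pooled RNA, fewer cells of a type and less RNA per cell cannot be told apart.

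In dying neurons, 5 of the 11 chemokine probes rose against sham, those of Ccl2, Ccl3, Ccl4, Ccl5 and Cxcl1, and 1 fell, that of Cxcl12 transcript variant 1 (limma, Benjamini-Hochberg adjusted p under 0.05). Over all 25628 probes tested in that comparison, 13.6% were called higher and 27.2% lower. The median difference of the 9 genes was 3.29 on the log2 scale, against -0.46 over all probes tested. However, 5 of the 9 entered the test through 1 group only, since the other group did not have both arrays well above background. That way in favours genes that differ, though 2 of the 5, Cxcl10 and Cx3cl1, were not called, and Cx3cl1 came in so only because 1 spot was left out. Both dying arrays lay above both sham arrays for 7 chemokine probes, of which Ccl5 and Cxcl10 have no readable order, 1 dying value of each lying below the faintest probe well above background on a sham array, and below them for 2, where 30.8% of all probes tested did so upward and 45.3% downward. No member passed the fold filter of the methods, as read here, in either direction among the 6 probes it could take, beside 2.06% of probes higher and 16.4% lower. That filter asks for a difference over 2-fold between groups whose replicates lie within 1.5-fold. The replicate limit is a reading of the percentage in the methods, and 2-fold was tried as another.

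The number of probes called, 10456 in dying against sham, fell to 1857 without sham replicate 1 and to 3792 without sham replicate 2. With background correction by normexp, limma called 0 probes, with 2856 at an unadjusted p under 0.05. How arrays are scaled set the balance of directions: 3481 probes were called higher and 6975 lower on the median, 6666 and 4407 on the 75th percentile, 5201 and 4077 after quantile normalization, 7225 and 4208 with the authors' series values, and 8191 and 3808 on the median of probes well above background on all 8 arrays. Against the scaling used here, the median of all probes moved by 0.73 on the 75th percentile, by 0.81 in the authors' values and by 1.01 on the last scaling. The last scaling was chosen after seeing the data. These 4 scalings and normexp are together called the 5 other scalings in what follows. A filter for probes well above background on all 4 arrays left 672 higher and 4864 lower.

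In surviving neurons, 0 of 10 chemokine probes tested rose against sham by the limma test and 2 fell, both of them Cxcl12 probes. Over the 26909 probes tested, 5.78% were called higher and 10.5% lower. The median difference of the 8 genes tested was 1.5, against -0.43 over all probes, and 3 of these 8 genes were tested through 1 group only. Both surviving arrays exceeded both sham arrays for 5 probes, those of Ccl2, Ccl3, Ccl4, Ccl5 and Cxcl1, with no readable order for Ccl4, and lay below for the 2 Cxcl12 probes, beside 28% and 48.8% of all probes tested. Of the 7 probes open to the fold filter, 0 passed it in either direction, beside 2.75% of probes higher and 23.9% lower. Both comparisons used the same sham arrays.

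For surviving against sham, limma called 4388 probes in all, of which 1555 were higher and 2833 lower, and 9606 had an unadjusted p under 0.05. Without sham replicate 1 the number was 190, without sham replicate 2 it was 398, without surviving replicate 1 it was 290 and without surviving replicate 2 it was 361. With only the 4 arrays compared it was 10456, and with normexp 0, where 2924 had an unadjusted p under 0.05. The 75th percentile gave 3861 higher and 1304 lower, quantile normalization 2374 and 1658, the authors' values 4349 and 1386, and the median of probes above background on all arrays 5006 and 1394. The median of all probes moved by 0.78, 0.88 and 0.97 on the 75th percentile, with the authors' values and on that median. Probes well above background on all 4 arrays gave 100 higher and 1681 lower.

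Surviving against dying, the comparison between neighbouring neurons of injured rats, gave 0 calls among the 11 chemokine probes and 0% among the 27393 probes tested with limma, of which 5640 had an unadjusted p under 0.05. It shares its arrays with both comparisons above. Both surviving arrays lay below both dying arrays for 6 chemokine probes, those of Ccl2, Ccl3, Ccl4, Ccl19, Cxcl1 and Cxcl12 transcript variant 3, and above them for the dimmer Cx3cl1 probe. Over all probes tested the same held for 21.7% downward and 30% upward. The fold filter took 1 of 9 members as lower, Cxcl12 transcript variant 3, and 0 as higher, beside 2.13% and 2.81% of probes. The median difference of the 9 genes was -1.32, against 0.14 over all probes, with 2 genes tested through 1 group only. Without dying replicate 2, limma called 5408 probes, 2947 higher and 2461 lower, and no chemokine member was among them. In that fit Cxcl1 had an adjusted p of 0.0726. The authors' series values gave 2 calls in place of 0, and with normexp 0 were called and 1327 had an unadjusted p under 0.05.

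Sham against naïve, a comparison of the surgery without the blow, gave 0 calls among the 8 chemokine probes tested and 0% among all 20679 with limma. Of these, 789 had an unadjusted p under 0.05, or 298 with normexp, and quantile normalization called 1. Both sham arrays lay above both naïve arrays for Ccl2 and the brighter Cx3cl1 probe, 2 of the 8, and below them for 1, Cxcl10, with no readable order, beside 38% and 4.95% of all probes tested. Ccl3, Ccl4 and Ccl5 were not tested, since neither group had both arrays well above background. The median of all probes moved by -0.29 on the 75th percentile, by -0.37 in the authors' values and by -0.42 on the median of probes above background on all arrays.

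**Figure D1:**
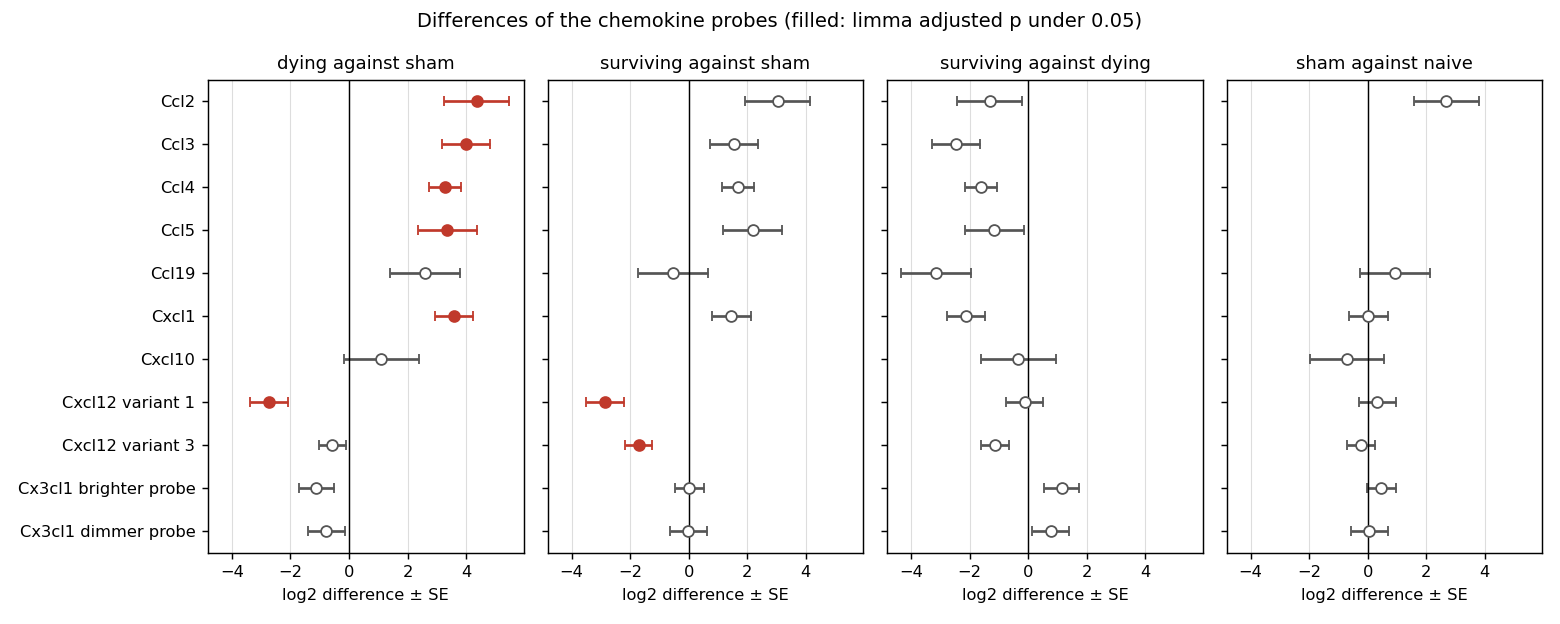
Log2 difference of each chemokine probe in 4 comparisons, with bars of 1 standard error from limma on 2 arrays per group, but 1 dying array for the brighter Cx3cl1 probe. Filled points had an adjusted p under 0.05. The points of Ccl2, Ccl3, Ccl4, Ccl5 and Cxcl1 lie furthest right in dying against sham, Cxcl12 transcript variant 1 lies at -2.74 there and at -2.86 in surviving against sham, variant 3 in dying against sham turns positive under 4 of 5 other scalings, and the dimmer Cx3cl1 probe in surviving against sham turns its sign under all 5.

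Ccl2 is the main attractant of monocytes through the receptor Ccr2. Its log2 level was -0.49 and -0.56 in naïve neurons, 4.20 and 0.13 after sham injury, 5.52 and 4.90 in surviving neurons and 6.54 and 6.52 in dying ones. The dying arrays were the highest of all 8, the naïve arrays the lowest, and the sham arrays stood far apart. The array carries 10 copies of this probe, and on sham replicate 1 all 10 spots were well above background, between 4.09 and 4.31, while on sham replicate 2 the spots ran from -0.21 to 0.55 and 6 were well above background. Ccl2 rose in dying neurons against sham by 4.36 ± 1.12 (SE, 2 arrays per group), or 20.6-fold, with a limma adjusted p of 0.0186. The call was lost without sham replicate 2, where the difference was 2.33 and the adjusted p 0.0562. It was also lost without dying replicate 1 (adjusted p = 0.0824) or dying replicate 2 (0.0563).

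In surviving neurons the Ccl2 difference from sham was 3.04 ± 1.12, 8.24-fold, and missed the threshold (adjusted p = 0.0951). It passed without sham replicate 1, where it was 5.07 (adjusted p = 0.0314), and with the authors' series values (0.0472), while without sham replicate 2 it shrank to 1.01 (0.367). Surviving neurons stood -1.32 ± 1.12 from dying ones (adjusted p = 0.534), a difference that turned to 0.23 with normexp. The sham and naïve arrays gave 2.69 ± 1.12 (adjusted p = 0.93), which came to 0.66 without sham replicate 1, to 4.72 without sham replicate 2 and to 1.14 with normexp.

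Ccl3 and Ccl4 attract macrophages and T cells. The Ccl3 level was -0.43 and -2.76 on the naïve arrays, -0.27 and -0.75 on the sham arrays, 0.73 and 1.33 for surviving and 2.84 and 4.15 for dying neurons. The Ccl4 level was -3.09 and -3.15 in naïve neurons, -2.63 and -2.12 after sham injury, -0.82 and -0.55 in surviving neurons and 0.28 and 1.55 in dying ones. Both genes were well above background on the 4 injured arrays and on no sham or naïve array. Within each gene the surviving and dying arrays did not overlap, and the surviving levels of Ccl4 lie below the faintest probe well above background on either sham array, so that its order from sham to surviving cannot be read.

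A fold against a group with neither array well above background is a lower bound. On each such array the level used is the probe's own or that of the faintest probe still marked as well above background, whichever is higher. On that footing Ccl3 rose at least 13-fold in dying neurons against sham (log2 difference 4.01 ± 0.82, limma adjusted p = 0.00896). Ccl4 rose at least 2.2-fold (3.29 ± 0.55, adjusted p = 0.00499). The Ccl3 call was lost without sham replicate 1 or without sham replicate 2 (adjusted p = 0.0554 each), and the Ccl4 call without sham replicate 1 (0.0544). In surviving neurons Ccl3 was at least 2.35-fold above sham (1.54 ± 0.82, adjusted p = 0.213) and Ccl4 differed by 1.69 ± 0.55 with no usable bound (adjusted p = 0.0705). With only the 4 arrays compared both passed, at adjusted p = 0.0333 for Ccl3 and 0.0224 for Ccl4, and Ccl4 passed also on the 75th percentile (0.0295) and on the median of probes above background on all arrays (0.022). With normexp the 2 differences shrank to 0.72 for Ccl3 (0.918) and 0.14 for Ccl4 (0.98). Set directly against dying neurons, surviving neurons were at -2.47 ± 0.82 for Ccl3 (adjusted p = 0.165) and at -1.60 ± 0.55 for Ccl4 (adjusted p = 0.172).

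Ccl5 attracts T cells and monocytes. Its level was 0.97 and -0.98 on the naïve arrays, -2.59 and -1.73 on the sham arrays, 0.13 and -0.07 for surviving and 2.67 and -0.28 for dying neurons. It was well above background on all 4 injured arrays, on 1 naïve array and on no sham array. The dying arrays were 1 above and 1 below both surviving arrays. Ccl5 rose at least 2.67-fold in dying neurons against sham (3.35 ± 1.01, limma adjusted p = 0.0319). That bound rests on dying replicate 1, since dying replicate 2 lies below the faintest probe well above background on sham replicate 2 (-0.15). Without dying replicate 1 the difference was 1.88 and the call was lost (adjusted p = 0.153), as it was without sham replicate 1 (0.156) or 2 (0.0795) and after quantile normalization (0.059). In surviving neurons it was at least 1.19-fold above sham (2.19 ± 1.01, adjusted p = 0.16, and 0.0162 with only the 4 arrays compared), and with normexp the difference was 0.31 (0.815). The surviving and dying arrays gave -1.16 ± 1.01 (adjusted p = 0.546), which turned to 0.31 without dying replicate 1.

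Cxcl1 is the classic attractant of neutrophils, acting on Cxcr2. Its level was 0.15 and 1.71 in naïve neurons, 0.93 and 0.98 after sham injury, 2.93 and 1.91 in surviving neurons and 4.91 and 4.19 in dying ones, and all 8 arrays were well above background. The order was dying above surviving above sham with no overlap, and the naïve arrays spanned the sham pair. Cxcl1 rose 12.1-fold in dying neurons against sham (3.59 ± 0.66, limma adjusted p = 0.00656). The call was lost without sham replicate 1 (adjusted p = 0.0551). In surviving neurons it was 2.76-fold above sham (1.46 ± 0.66, adjusted p = 0.153), and this passed on the 75th percentile (0.0311), with the authors' values (0.0232) and on the median of probes above background on all arrays (0.0202), while without surviving replicate 1 it was 0.95 (0.484). Surviving neurons were at -2.13 ± 0.66 from dying ones (adjusted p = 0.151). Sham against naïve was 0.02 ± 0.66 and turned negative under 4 of 5 other scalings.

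Cxcl10 is an interferon-induced ligand of Cxcr3 on T cells. Its level was -0.58 and 0.02 on the naïve arrays, -0.99 and -1.0 on the sham arrays, -2.52 and 2.06 for surviving and -0.54 and 0.77 for dying neurons. The surviving arrays were the lowest and the highest of all 8, and the lower of them was not well above background, nor was either sham array. Dying against sham was 1.11 ± 1.28 (limma adjusted p = 0.497), with a bound of 1.26-fold but no readable order. That bound rests on dying replicate 2, since dying replicate 1 lies below the faintest probe well above background on either sham array. Surviving against sham was not tested, and surviving against dying was -0.34 ± 1.28 (adjusted p = 0.91), which turned positive with normexp, without surviving replicate 1 and without dying replicate 2. Sham against naïve was -0.71 ± 1.28 (adjusted p = 0.932), with no usable bound.

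Ccl19 guides T cells and dendritic cells to lymph nodes through Ccr7. Its level was -0.30 and 3.89 in naïve neurons, 3.22 and 2.23 after sham injury, 2.68 and 1.68 in surviving neurons and 5.19 and 5.45 in dying ones, well above background on all 8 arrays. The dying arrays lay above the other 6, among which the groups overlapped and the naïve pair spread widest. The difference of dying from sham was 2.60 ± 1.19, 6.06-fold, and missed the threshold (limma adjusted p = 0.11). It passed on the 75th percentile (3.33, adjusted p = 0.047), with the authors' values (3.40, 0.0451) and with only the 4 arrays compared (0.0225). Surviving neurons were at -3.14 ± 1.19 from dying ones (adjusted p = 0.2). Against sham they were at -0.54 ± 1.19 (adjusted p = 0.771), a value that turned positive under all 5 other scalings, from 0.09 to 0.43. Sham against naïve was 0.93 ± 1.19 (adjusted p = 0.93) and turned to -1.17 without naïve replicate 1.

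Cxcl12 acts on Cxcr4 and on a second receptor, called Cmkor1 on this array, and keeps neuronal precursors and leukocytes in place. The probe of transcript variant 1 stood at 6.54 and 7.07 on the naïve arrays, 7.47 and 6.80 on the sham arrays, 4.38 and 4.17 for surviving and 5.25 and 3.55 for dying neurons. The probe of variant 3 stood at 5.57 and 5.70 in naïve neurons, 5.70 and 5.10 after sham injury, 3.44 and 3.95 in surviving neurons and 4.84 and 4.83 in dying ones. With either probe the injured arrays lay below all 4 sham and naïve arrays on this scaling. They differed in the order of the injured groups: surviving and dying overlapped with variant 1 and did not with variant 3.

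Cxcl12 variant 1 fell by 2.74 ± 0.64 in dying neurons against sham, 6.66-fold lower, with a limma adjusted p of 0.0142. It fell by 2.86 ± 0.64 in surviving neurons, 7.27-fold lower, with an adjusted p of 0.0271. In dying neurons the call was lost without sham replicate 1 (adjusted p = 0.105), without sham replicate 2 (0.0528) and after quantile normalization (0.0757). In surviving neurons it was lost without any 1 of the 4 arrays (adjusted p from 0.107 to 0.19), after quantile normalization (0.0797) and on the median of probes above background on all arrays (0.0518). Variant 3 fell by 1.71 ± 0.47 in surviving neurons, 3.26-fold lower, with an adjusted p of 0.0457, and this call held under none of the 5 other scalings. In dying neurons variant 3 was at -0.57 ± 0.47 from sham (adjusted p = 0.345), positive under 4 of 5 other scalings. Setting surviving against dying gave -0.13 ± 0.64 for variant 1 (adjusted p = 0.936) and -1.14 ± 0.47 for variant 3 (adjusted p = 0.226), both of them positive with normexp. Setting sham against naïve gave 0.33 ± 0.64 for variant 1, negative under 2 of 5 other scalings, and -0.23 ± 0.47 for variant 3, positive with normexp (adjusted p = 0.933 each).

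Cx3cl1, or fractalkine, is the ligand that neurons hold on their membrane and shed towards microglia. Its brighter probe stood at 10.82 and 11.40 in naïve neurons, 11.66 and 11.50 after sham injury, 11.62 and 11.60 in surviving neurons and 10.46 in dying ones. In dying replicate 1 its spot was marked as non-uniform and left out, so that dying neurons have 1 value here, and with that spot kept it would read 11.10. The dimmer probe stood at 3.43 and 4.88 on the naïve arrays, 3.71 and 4.70 on the sham arrays, 4.11 and 4.28 for surviving and 3.11 and 3.75 for dying neurons. The dying value was the lowest of the 7 with the brighter probe, while with the dimmer probe the dying arrays overlapped the sham and naïve pairs.

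For dying against sham the brighter Cx3cl1 probe gave -1.12 ± 0.59 (limma adjusted p = 0.161), and came to -0.42 or nearer to 0 under all 5 other scalings. The dimmer probe gave -0.78 ± 0.63 (adjusted p = 0.338), positive under 3 of 5 other scalings. Surviving against sham gave 0.03 ± 0.48 for the brighter probe (adjusted p = 0.975, and at least 0.63 under the 5 other scalings) and -0.01 ± 0.63 for the dimmer (0.993), and the latter turned positive under all 5 other scalings. On the median of probes above background on all arrays the brighter probe passed in surviving neurons (adjusted p = 0.0416). Surviving against dying gave 1.15 ± 0.59 (adjusted p = 0.319) and 0.77 ± 0.63 (0.525), positive under all scalings tried. Sham against naïve gave 0.47 ± 0.48 for the brighter probe (adjusted p = 0.93) and 0.05 ± 0.63 for the dimmer (0.987), which turned negative under 4 of 5 other scalings.

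**Figure D2:**
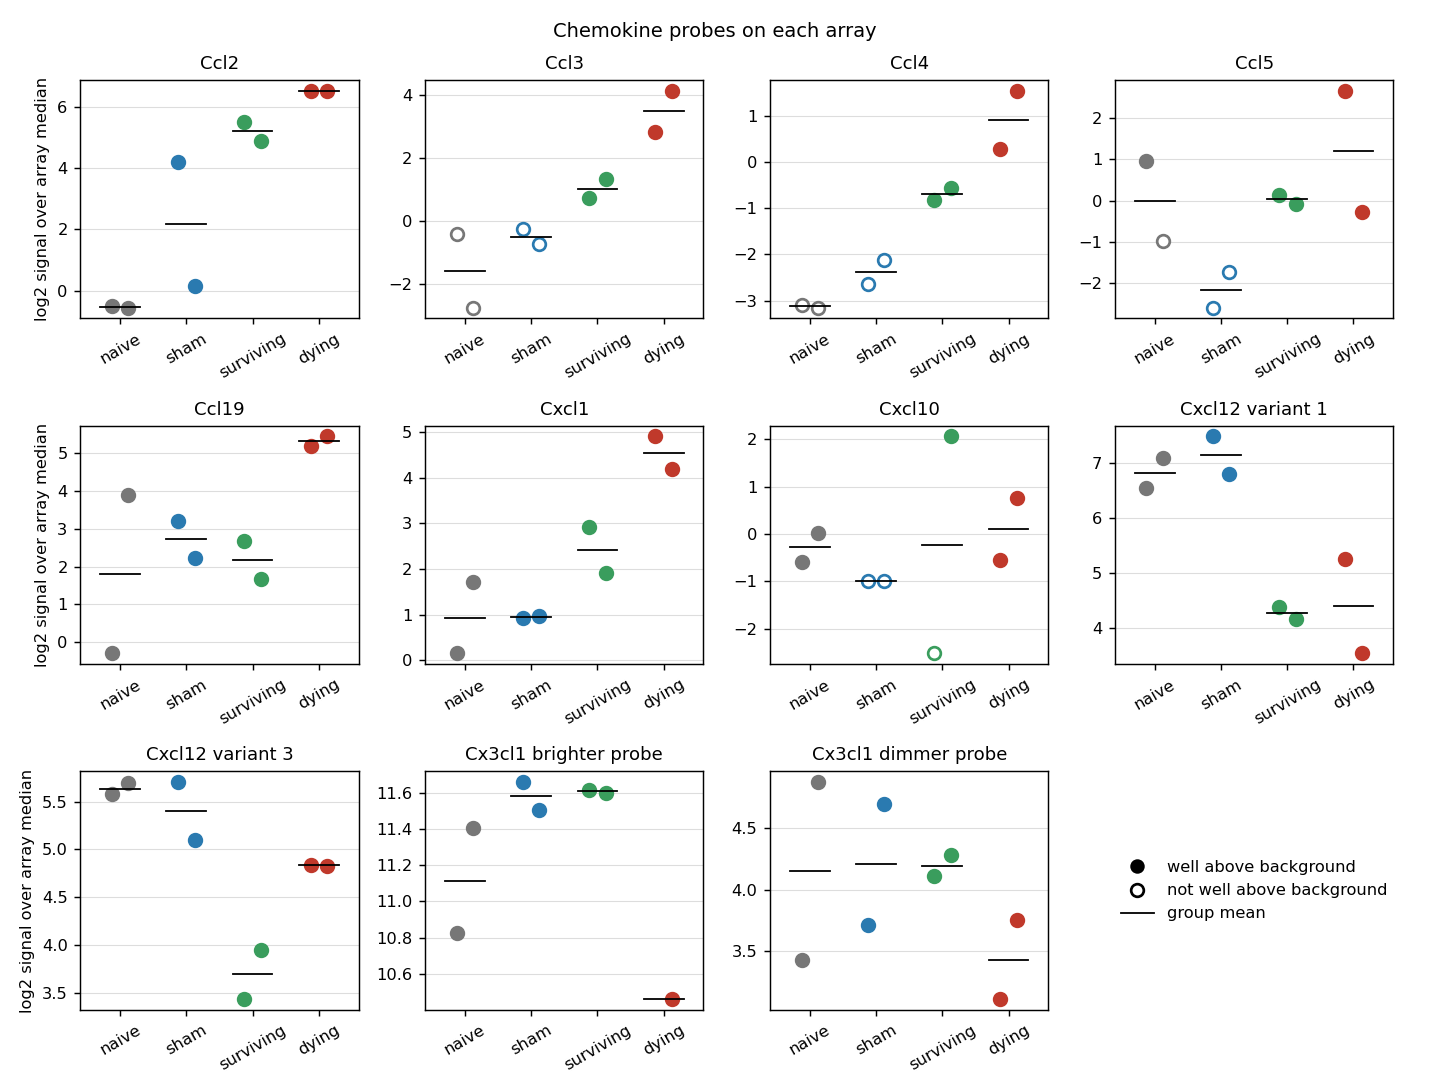
Log2 signal over the array median of each chemokine probe on the 8 arrays, 2 per group, with a line at the group mean; open circles were not well above background. Ccl2, Ccl3 and Cxcl1 step up from sham through surviving to dying neurons, where for Ccl2 the last step turns with normexp, sham replicate 1 of Ccl2 sits at 4.20 far from its pair, and both Cxcl12 probes are lower on all 4 injured arrays than on sham or naïve arrays, which for variant 3 in dying neurons turns under 4 of 5 other scalings.

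Under the 5 other scalings, the 6 differences called in dying against sham kept their sign. Ccl2, Ccl3, Ccl4 and Cxcl1 were called under 4 of these 5, Ccl5 and Cxcl12 variant 1 under 3. With normexp none of the 6 was called: the difference was 2.73 for Ccl2, 1.88 for Ccl3, 0.89 for Ccl4, 0.36 for Ccl5, 2.02 for Cxcl1 and -2.88 for Cxcl12, at adjusted p from 0.441 to 0.515.

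**Figure D3:**
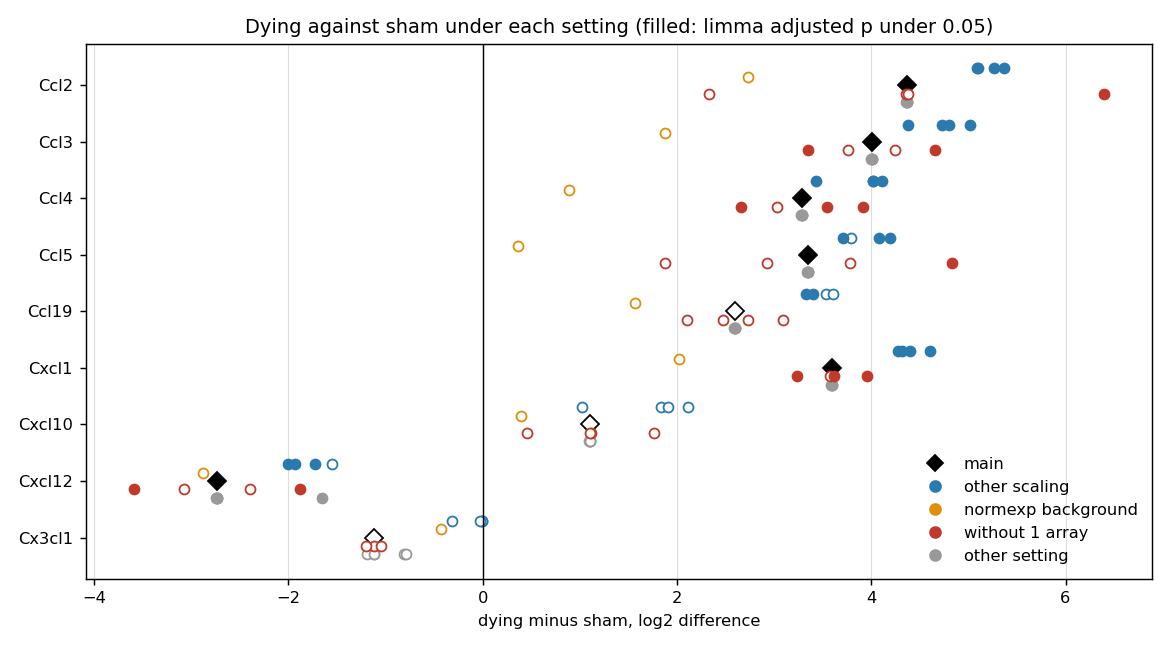
Log2 difference of dying minus sham for the brightest probe of each chemokine under every setting, with 2 arrays per group in the fit as reported, but 1 dying array for Cx3cl1. Filled points had a limma adjusted p under 0.05. All points of Ccl2, Ccl3, Ccl4, Ccl5 and Cxcl1 lie right of 0 and all of Cxcl12 left of it, and the normexp points at 0.89 for Ccl4 and 0.36 for Ccl5 lie nearest to 0 for those genes.

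Promoter windows of ligand genes, from 250 bases before to 50 after the start, were taken from RefSeq (GRCr8) to show the sequence beside ligands that rose or fell together. The table held 5 of the 9 members, and Ccl2, Ccl3, Ccl4 and Ccl5 were missing. Shown are Cxcl1, which rose, Cxcl12, which fell, and Ccl6 and Ccl12, which rose in dying neurons and are neighbours of members on chromosome 10. Capitals mark the NF-kB consensus in Cxcl1, where matches on both strands overlap, and the TATA box TATAAA in Ccl6 and Ccl12. Cxcl1 lies on the minus strand of chr14:17479272-17479571, Cxcl12 on the plus strand of chr4:152060531-152060830, Ccl6 on the minus strand of chr10:68883317-68883616 and Ccl12 on the plus strand of chr10:67567626-67567925.
Cxcl1: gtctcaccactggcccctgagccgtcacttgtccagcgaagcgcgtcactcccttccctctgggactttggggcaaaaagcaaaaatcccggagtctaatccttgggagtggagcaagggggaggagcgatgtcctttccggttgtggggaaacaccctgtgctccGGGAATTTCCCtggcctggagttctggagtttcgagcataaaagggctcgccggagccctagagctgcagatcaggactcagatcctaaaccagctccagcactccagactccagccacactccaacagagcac
Cxcl12: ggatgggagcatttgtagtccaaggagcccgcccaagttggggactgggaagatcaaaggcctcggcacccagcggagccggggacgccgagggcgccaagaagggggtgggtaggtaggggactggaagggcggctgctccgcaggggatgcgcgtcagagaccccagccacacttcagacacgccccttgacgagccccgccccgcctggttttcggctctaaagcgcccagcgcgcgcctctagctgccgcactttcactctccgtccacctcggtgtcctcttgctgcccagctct
Ccl6: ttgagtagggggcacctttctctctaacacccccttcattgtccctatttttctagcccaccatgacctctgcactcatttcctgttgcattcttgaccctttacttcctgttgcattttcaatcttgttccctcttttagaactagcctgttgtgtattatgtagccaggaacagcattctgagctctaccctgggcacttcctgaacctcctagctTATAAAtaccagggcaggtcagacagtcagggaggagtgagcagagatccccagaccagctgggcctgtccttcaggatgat
Ccl12: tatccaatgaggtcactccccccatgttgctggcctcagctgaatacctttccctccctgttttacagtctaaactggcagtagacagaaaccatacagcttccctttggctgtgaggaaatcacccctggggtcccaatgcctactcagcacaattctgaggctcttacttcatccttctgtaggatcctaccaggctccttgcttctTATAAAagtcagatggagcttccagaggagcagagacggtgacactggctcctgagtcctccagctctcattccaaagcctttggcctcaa

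Both strands of these windows were searched for 4 motifs, and a match describes letters and not a site in use. The NF-kB consensus occurred in 1400 of 33469 promoters of the same length (4.18%), the AP-1 motif TGANTCA in 2453 (7.33%), the interferon-response motif GAAANNGAA in 3251 (9.71%) and TATAAA in 4760 (14.2%). Among the 5 members with a window, NF-kB letters were found in 2, Cxcl1 and Cxcl10, AP-1 letters in 1, Cxcl10, interferon-response letters in 2, Ccl19 and Cxcl10, and TATAAA in 2, Cxcl10 and Cx3cl1. In Cxcl1 the NF-kB letters span bases -84 to -74 from the start. Cxcl12 held none of the 4 motifs in its window. Of 31 other ligands, 24 had a window, with NF-kB letters in 5, AP-1 letters in 3, interferon-response letters in 0 and TATAAA in 8. In Ccl6 TATAAA lies at -32 to -27 and in Ccl12 at -41 to -36.

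In the RefSeq gene order (GRCr8), several of these genes are neighbours. On chromosome 10, Ccl2, Ccl7, Ccl11 and Ccl12 follow each other with 0 genes between, and so do Ccl6, Ccl3 and Ccl4. On chromosome 14 Cxcl1 lies beside Cxcl2, and Cxcl10 between Cxcl11 and Cxcl9. Among these neighbours, Ccl11 was well above background on 1 array, in surviving neurons, and Cxcl9, an interferon-induced ligand like Cxcl10, was at -1.68 ± 0.72 in dying neurons against sham (limma adjusted p = 0.093).

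Of the other chemokine ligands, 21 genes were on the array and 13 were tested in dying against sham, 7 of them through 1 group only. There 5 rose and 0 fell by the limma test, beside 13.6% of all probes higher and 27.2% lower. The median difference of those tested was 1.92, against -0.46 over all probes. Ccl12, a ligand of Ccr2 like Ccl2, stood at -2.75 and -2.76 in naïve neurons, -2.31 and -1.23 after sham injury, -0.56 and 0.77 in surviving neurons and 2.10 and 3.25 in dying ones. It was well above background on the 4 injured arrays alone, and the injured groups did not overlap. It rose at least 7.47-fold in dying neurons (4.44 ± 0.67, adjusted p = 0.00389). In surviving neurons it was at 1.87 ± 0.67 from sham (adjusted p = 0.0901), with a bound of 1.26-fold but no readable order. The surviving bound rests on surviving replicate 2, since surviving replicate 1 lies below the faintest probe well above background on either sham array.

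Ccl6, a macrophage-derived ligand of Ccr1, stood at 0.90 and 0.92 on the naïve arrays, 1.41 and 1.20 on the sham arrays, 2.75 and 1.25 for surviving and 3.67 and 4.18 for dying neurons. It rose 6.15-fold in dying neurons (2.62 ± 0.58, adjusted p = 0.012), where both arrays exceeded the other 6. Ccl22, a ligand of Ccr4, rose by 2.28 ± 0.54 (adjusted p = 0.0146), with 1 of its 2 sham arrays well above background. Ccl28, an epithelial ligand, rose at least 1.12-fold (2.04 ± 0.64, adjusted p = 0.0376), and the platelet-derived Cxcl7 at least 1.28-fold (2.25 ± 0.65, adjusted p = 0.0321). Both bounds rest on dying replicate 1, since dying replicate 2, at -0.82 and -0.685, lies below the faintest probe well above background on either sham array. Ccl28 lost its call with the replicate number as a term, with only the 4 arrays compared and with no filter on dim probes. Cxcl7 lost its call with non-uniform spots kept. Without sham replicate 1 Ccl6, Ccl22, Ccl28 and Cxcl7 lost their calls, and without sham replicate 2 the same 4 did. Without dying replicate 1 Ccl22, Ccl28 and Cxcl7 lost theirs, after quantile normalization Ccl28 and Cxcl7 did, with the authors' values Cxcl7 did, and with normexp all 5 did.

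Ccl7, a further monocyte attractant and next to Ccl2, shared with it the split between the sham pools. Its level was -0.55 and -2.85 in naïve neurons, 3.28 and -1.40 after sham injury, 3.58 and 3.89 in surviving neurons and 4.18 and 4.84 in dying ones. Sham replicate 1 was the single control array on which it was well above background. Its difference in dying neurons was 3.57 ± 1.39 (limma adjusted p = 0.0706), or 1.23 without sham replicate 2 (0.372), and it passed without sham replicate 1 (5.91, 0.0308), with the replicate number as a term and with the authors' series values. For the other ligands tested in dying against sham, Cxcl4 was at 1.92 ± 0.86 (adjusted p = 0.104), Cxcl14 at 1.43 ± 0.61 (0.0927) and Cxcl2 at 1.22 ± 0.72 (0.199). The 1.19-fold bound of Cxcl2 rests on dying replicate 1 (0.32), since dying replicate 2 (-0.18) lies below sham replicate 2 (-0.04). Cxcl4 and Cxcl14 passed on the 75th percentile, with the authors' values and on the median of probes above background on all arrays, Cxcl14 also after quantile normalization, and Cxcl4 also with only the 4 arrays compared. Ccl17 was at 0.48 ± 0.84, negative with normexp, Ccl21b at -0.25 ± 0.53, positive under 3 of 5 other scalings, and Ccl27 at -0.60 ± 0.46, positive under 4.

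Surviving neurons showed 0 calls among 13 other ligands tested against sham by limma, with differences from -1.53 for Cxcl9 to 2.80 for Ccl7, and a median of 0.44 against -0.43 over all probes. Of these 13, 6 were tested through 1 group only. On the 75th percentile and on the median of probes above background on all arrays 4 were called higher, Ccl12, Ccl22, Ccl28 and Cxcl7, with the authors' values the first 3 of them, and 0 after quantile normalization or with normexp. With only the 4 arrays compared Cxcl7 was called higher and Cxcl9 lower. The surviving and dying arrays gave 0 calls among 14, from -2.57 for Ccl12 (adjusted p = 0.136) to 0.74 for Xcl1, which turned negative with normexp, and a median of -0.80 against 0.14, with 3 tested through 1 group only. The sham and naïve arrays gave 0 calls among 7, from -0.12 for Ccl17, positive with normexp, to 0.81 for Cxcl9 (adjusted p = 0.93), and a median of 0.31 against 0.37. Ccl9 was well above background on none of the 8 arrays. The summed signal of 19 ligands was 188 and 296 times the array median in naïve neurons, 321 and 251 after sham injury, 249 and 293 in surviving neurons and 371 and 320 in dying ones. Without Ccl27 the sums were 44.6 and 78.4, 80.9 and 51, 88.2 and 90, and 227 and 173.

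Of the chemokine receptors 19 were on the array, and in dying against sham 9 were tested, 6 of them through 1 group only. By the limma test 2 were called higher, of which Ccr7 has no readable order, and 1 lower, where 13.6% of all probes were higher and 27.2% lower. Under the other scalings 3 or 4 rose and 1 fell, or 0 and 0 with normexp. Their median difference was 0.72, against -0.46 over all probes. Cmkor1, the second receptor of Cxcl12, stood at 1.25 and 2.43 on the naïve arrays, 3.34 and 2.15 on the sham arrays, 2.17 and 1.17 for surviving and -2.69 and -0.09 for dying neurons. Both dying arrays lay below the other 6, and 1 of them was not well above background. It fell by 4.13 ± 0.92 in dying neurons against sham (adjusted p = 0.0119), and the call was lost without sham replicate 1 and with normexp. In surviving neurons it was at -1.08 ± 0.92 from sham (adjusted p = 0.425), and surviving neurons were at 3.05 ± 0.92 from dying ones (adjusted p = 0.149), which passed without dying replicate 2.

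Ccr7, the receptor of Ccl19, was called higher in dying neurons against sham, at 1.27 ± 0.44 (limma adjusted p = 0.0496). It was at 1.01 ± 0.44 in surviving ones (0.14), where it passed under 4 of 5 other scalings and was negative with normexp. There was no usable bound in either. Its injured levels lie below the faintest probe well above background on either sham array, so that its order from sham cannot be read. Blr1, the B-cell receptor now called Cxcr5, rose at least 1.56-fold in dying neurons (1.58 ± 0.52, adjusted p = 0.0415) and at least 2.12-fold in surviving ones (2.02 ± 0.52, adjusted p = 0.0372). Both genes were well above background on all 4 injured arrays and on no control array. In dying neurons both calls were lost with the replicate number as a term, with only the 4 arrays compared, and without sham replicate 1, sham replicate 2 or dying replicate 1. In surviving neurons the Blr1 call was lost without any 1 of the 4 arrays.

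Cxcr4, the first receptor of Cxcl12, stood at -1.22 and 1.26 on the naïve arrays, 1.59 and -0.40 on the sham arrays, 1.08 and 0.83 for surviving and 1.11 and 1.97 for dying neurons. The sham pair spanned both surviving arrays and 1 dying array, and 1 sham and 1 naïve array were well above background. Its difference from sham was 0.95 ± 0.93 in dying (limma adjusted p = 0.425) and 0.36 ± 0.93 in surviving neurons (0.805).

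Cx3cr1, the microglial receptor of Cx3cl1, was well above background on both surviving arrays and 1 dying array. It was not tested in dying against sham, and gave 0.10 ± 0.89 in surviving against sham (limma adjusted p = 0.945, with no usable bound and negative under 2 of 5 other scalings) and 0.90 ± 0.89 in surviving against dying neurons (0.601, negative with normexp). The receptors of Ccl2, Cxcl1 and Cxcl10, which are Ccr2, Il8rb and Cxcr3, are named for their ligands after their values were seen: each was well above background on 1 surviving and 1 dying array, Cxcr3 also on 1 naïve array, and none was tested. Ccr9, a receptor of gut-homing T cells, gave 1.42 ± 0.51 in dying (adjusted p = 0.0564) and 1.58 ± 0.51 in surviving neurons against sham (0.0697, negative with normexp), with no usable bound in either, and passed under 4 of 5 other scalings in dying and 3 in surviving neurons. For dying against sham Ccr8 was at 0.72 ± 0.49, with no usable bound, and Ccrl2 at 0.34 ± 0.60, both negative with normexp, and Il8ra was at -0.01 ± 0.52, positive under 4 of 5 other scalings. Ccbp2, a scavenger of inflammatory CC ligands, was at 0.81 ± 0.63 in surviving against sham (adjusted p = 0.381), with no usable bound and negative with normexp.

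Surviving against sham gave 1 receptor call, the rise of Blr1, and 0 downward among 10 receptors tested, 6 of them through 1 group only, with a median of 0.23 against -0.43 over all probes. Ccr7 joined it under 4 of 5 other scalings and Ccr9 under 3, and 0 were called with normexp. Setting surviving against dying gave 0 among 11 receptors with limma, up to 3.05 for Cmkor1, with a median of -0.05 against 0.14. Setting sham against naïve gave 0 among 4 receptors, up to 1.23 for Il8ra (adjusted p = 0.93), with a median of 0.95 against 0.37. Ccr3 was well above background on no array. The summed signal of 19 receptors was 18.2 and 18.8 in naïve neurons, 35 and 28.3 after sham injury, 24.7 and 24.5 in surviving neurons and 28.4 and 34 in dying ones.

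**Figure D4:**
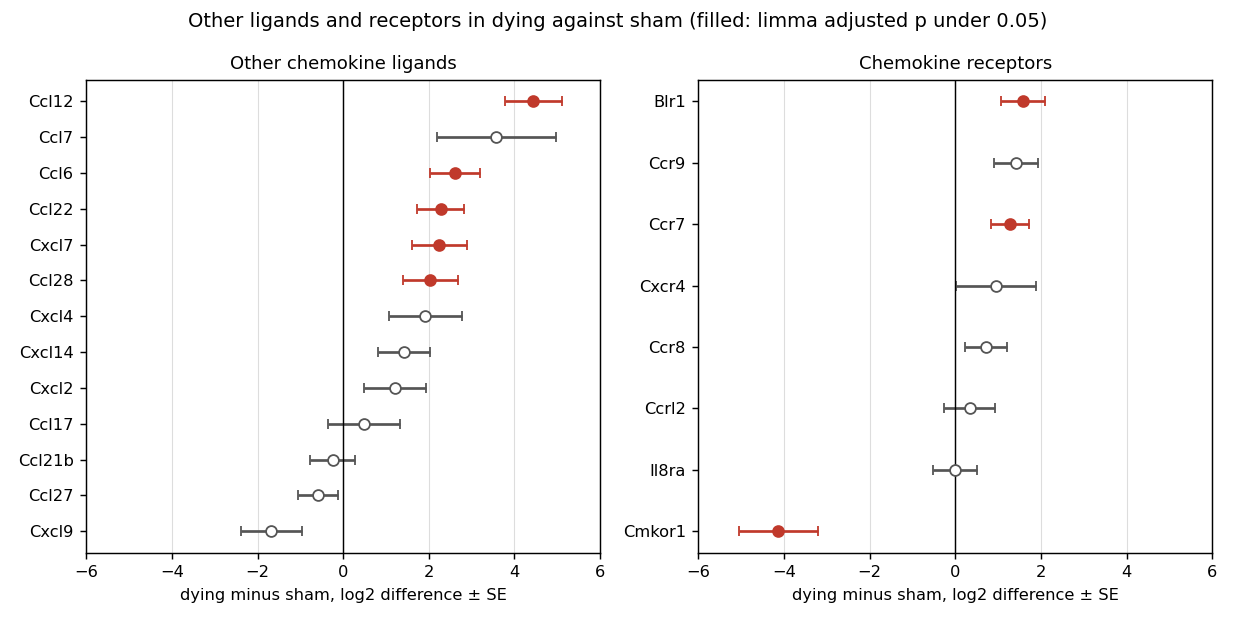
Log2 difference of dying minus sham for the other chemokine ligands tested and 8 of the 9 receptors tested, with bars of 1 standard error from limma on 2 arrays per group; filled points had an adjusted p under 0.05. Ccl12 at 4.44 and Cmkor1 at -4.13 are the extremes, and the points of Ccl17, Ccl21b, Ccl27, Ccr8, Il8ra and Ccrl2 turn their sign under 1 or more of 5 other scalings.

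NF-kB and the cytokines that drive it are classic inducers of Ccl2, Cxcl1 and other inflammatory ligands. The list used here also holds genes that are not inducers, such as the inhibitors Nfkbia and Nfkbib, Icam1 and Ptgs2. Of its 15 genes on the array, 10 were tested in dying against sham, 3 through 1 group only, and 1 rose and 1 fell by limma (13.6% and 27.2% of all probes), with a median difference of -0.14 against -0.46 over all probes. Under 4 of 5 other scalings 3 or 4 rose and 0 fell, with Nfkb2 and Nfkbia called higher in each and Icam1 in 2, and 0 were called with normexp. Il1b, which encodes interleukin-1 beta, stood at -1.82 and -2.94 on the naïve arrays, -1.15 and -2.21 on the sham arrays, 1.13 and 0.19 for surviving and 2.55 and 3.14 for dying neurons, well above background on the 4 injured arrays alone. Sham, surviving and dying arrays followed in that order without overlap. Il1b rose at least 8.39-fold in dying neurons (4.52 ± 0.64, adjusted p = 0.00335) and at least 1.85-fold in surviving neurons (2.35 ± 0.64, adjusted p = 0.0443). The surviving call was lost without any 1 of the 4 arrays, after quantile normalization and with normexp, and the dying call with normexp. Surviving against dying gave -2.18 ± 0.64 (adjusted p = 0.143).

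Ptgs2, the inducible cyclooxygenase, fell by 3.43 ± 1.07 in dying neurons (adjusted p = 0.0357), with 1 dying array well above background. The call was lost under all 5 other scalings, without sham replicate 1 or 2 and without dying replicate 1. For surviving against sham Il1b was the 1 call among 11 genes of this list, 3 tested through 1 group only, and the median was -0.05 against -0.43. Nfkb2 was called higher there under 3 of 5 other scalings and Nfkbia also under 3. The lowest there was Nfkb1 at -0.96 ± 0.44, positive under 3 of 5 other scalings. The surviving and dying arrays gave 0 calls among 11 by limma, up to Rel, an NF-kB subunit, which surviving neurons had at least 3.21-fold higher (3.42 ± 0.76, limma adjusted p = 0.127), with a median of 0.10 against 0.14. Sham against naïve gave 0 among 9, from -0.39 for Rel to 1.09 for Icam1, with a median of 0.36 against 0.37. Il1a and Il6 were well above background on no array. The summed signal of the 15 genes was 84.7 and 107 in naïve neurons, 134 and 109 after sham injury, 156 and 116 in surviving neurons and 129 and 128 in dying ones, with the probe of Nfkbia the brightest.

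Cxcl10 and Cxcl9 belong to the genes that interferons induce. Of 15 genes of the interferon response on the array, 7 were tested in dying against sham, 2 through 1 group only, of which 3 rose and 0 fell by limma (13.6% and 27.2% of all probes), with a median of 0.92 against -0.46 over all probes. Irf7 also rose under 4 of 5 other scalings. Gbp2, an interferon-induced GTPase, stood at 1.82 and 3.22 on the naïve arrays, 3.01 and 2.52 on the sham arrays, 6.08 and 5.34 for surviving and 6.37 and 6.68 for dying neurons, so that all injured arrays lay above all others. It rose 13.6-fold in dying neurons (3.76 ± 0.60, adjusted p = 0.00448) and 7.7-fold in surviving neurons (2.94 ± 0.60, adjusted p = 0.0206). Irf1, a transcription factor of the response, rose at least 1.71-fold in dying (adjusted p = 0.0312) and at least 1.97-fold in surviving neurons (0.0449), and the antiviral Oas1 rose 6.44-fold in dying neurons (0.0223). All of these calls were lost with normexp, those in surviving neurons also without any 1 of the 4 arrays, those of Irf1 after quantile normalization, and that of Irf1 in dying neurons without sham replicate 1 or dying replicate 1. Oas1 lost its call without sham replicate 1 or 2 or dying replicate 2.

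In surviving against sham, Irf1 and Gbp2 were the 2 calls among 8 genes of the interferon response, 3 tested through 1 group only, the lowest was Ifit1 at -2.13 ± 0.94 (limma adjusted p = 0.146), and the median was 0.66 against -0.43. Ifnb1 and Oas1 were called higher there under 3 of 5 other scalings. With only the 4 arrays compared Oas1 was called higher, and Cxcl9 and Ifit1 lower. Setting surviving against dying gave 0 among 8, from -2.21 for Ifit1 to 0.71 for Ifnb1, with a median of -0.31 against 0.14. The sham and naïve arrays gave 0 among 6, from 0.25 for Gbp2, negative under 3 of 5 other scalings, to 0.81 for Cxcl9, with a median of 0.58 against 0.37. Ifit3, Mx1, Mx2 and Ifng were well above background on no array. The sum over 14 of these genes was 78.9 and 65.5 in naïve neurons, 107 and 96.1 after sham injury, 135 and 114 in surviving neurons and 149 and 211 in dying ones.

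Chemokines are made by microglia, macrophages, astrocytes and endothelium as well as by neurons, so the markers of these cells are given beside them, and their part in the chemokine differences was not tested. Of 13 markers of microglia and macrophages on the array, 8 were well above background on each of the 8 arrays, and Tmem119 on none. Their summed signal, over 12 genes and in multiples of the array median, was 166 and 323 on the naïve arrays, 328 and 291 on the sham arrays, 325 and 354 for surviving and 2030 and 1120 for dying neurons. The dying arrays thus stood above the other 6, as they did with any 1 of the 12 genes left out and under 4 of 5 other scalings, while with normexp they overlapped. Without C1qb the sums were 1130 and 681 against 230 and 223 in surviving neurons. In dying against sham 4 of 9 tested rose and 0 fell by limma (13.6% and 27.2% of all probes), with 1 tested through 1 group only and a median of 1.61 against -0.46: Tyrobp by 3.61 ± 0.56 (adjusted p = 0.00418), Cd68 by 3.61 ± 0.57 (0.00445), C1qb by 3.1 ± 0.58 (0.00703) and C1qa by 1.89 ± 0.52 (0.0238). The lowest was Csf1r at -0.34 ± 0.59, positive under 4 of 5 other scalings. Between 5 and 7 rose under 4 of 5 other scalings and 0 with normexp.

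For surviving against sham 0 of 11 microglial markers rose and Ctss fell, by 1.97 ± 0.54 (limma adjusted p = 0.0443), lost under all 5 other scalings, of which 4 called Cd68 and Tyrobp higher and 2 C1qb. The highest there was Cd68 at 1.79 ± 0.57 (adjusted p = 0.0671), the median was 0.04 against -0.43, and 2 were tested through 1 group only. In surviving against dying 0 of 10 were called, the median was -1.63 against 0.14, and the values ran from -2.50 for C1qb (adjusted p = 0.128) to 0.90 for Cx3cr1, negative with normexp. Without dying replicate 2, C1qb, Cd68 and Tyrobp were called lower. Setting sham against naïve gave 0 of 9, from 0.05 for Ctss, negative under 4 of 5 other scalings, to 1.23 for Cd68, with a median of 0.41 against 0.37.

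Markers of neutrophils and lymphocytes, the cells that Cxcl1, Ccl5 and Cxcl10 attract, summed to 17.7 and 14.7 in naïve neurons, 19.6 and 15.8 after sham injury, 174 and 198 in surviving neurons and 520 and 208 in dying ones over 12 genes. On the injured arrays most of this was Lcn2, which glia also make after injury, and without it the sums were 15.6 and 10.8, 9.88 and 10.4, 16.5 and 16.9, and 49.5 and 40.7. Of the 12, 2 were well above background on each of the 8 arrays, and Cd4 was so on no array. For dying against sham 5 of 6 tested were called higher by limma (13.6% of all probes), 4 of the 6 tested through 1 group only, with a median of 3.16 against -0.46. The other scalings called 5 or 6, and normexp 0. Lcn2 rose 38.8-fold (5.28 ± 0.65, adjusted p = 0.00233), S100a8 at least 10.6-fold (4.61 ± 0.64, 0.0032), Cd3d 3.81-fold (1.93 ± 0.48, 0.0174) and Cd8a at least 1.68-fold (2.80 ± 0.87, 0.035). The Cd8a bound rests on dying replicate 1, since dying replicate 2 (-0.44) lies below the faintest probe well above background on either sham array. The call of Ccr7 has no usable bound, and its order from sham cannot be read. In surviving against sham 1 of 6 rose, Lcn2 by 23.3-fold (4.54 ± 0.65, adjusted p = 0.00727), the lowest was Cd3d at 0.92 ± 0.48, the median was 1.26 against -0.43, and 4 were tested through 1 group only. Under 4 of 5 other scalings 4 or 5 of the 6 rose, with Ccr7, Cd3d and Mpo in each and S100a8 in 2, and 0 with normexp. Surviving against dying gave 0 of 7, from Cd8a, at least 5.63-fold lower in surviving neurons (-3.51 ± 0.87, adjusted p = 0.131), to Mpo at 0.48 ± 0.46, negative with normexp, with a median of -1.01 against 0.14. Without dying replicate 2 Cd8a and S100a8 were called lower. Sham against naïve gave 0 of 3, from Camp, at least 2.05-fold lower after sham injury (-2.20), to 1.37 for Lcn2, with a median of 0.59 against 0.37.

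Astrocyte markers, of cells that also make Cxcl12, summed to 872 and 1030 on the naïve arrays, 1480 and 934 on the sham arrays, 503 and 520 for surviving and 1230 and 559 for dying neurons over 9 genes, led by Slc1a3, and 7 were well above background on all 8 arrays. On this scaling the surviving arrays and dying replicate 2 were the lowest, as they were for Cxcl12 variant 1. That order of the sums held on the 75th percentile. Sham replicate 2 lay below dying replicate 2 after quantile normalization (698 and 865), with the authors' values (139 and 157) and on the median of probes above background on all arrays (50.6 and 60.8). With normexp naïve replicate 1 was lowest, at 42.5. In dying against sham 0 of 8 rose and 2 fell by limma, against 13.6% and 27.2% of all probes, with 1 tested through 1 group only and a median of -0.62 against -0.46: the gap junction gene Gja1 fell by 2.61 ± 0.66 (adjusted p = 0.018) and the glutamate transporter Slc1a2 by 2.29 ± 0.52 (0.0124), and Vim was highest at 1.76 ± 1.16 (0.242). Slc1a2 stayed called under 4 of 5 other scalings and Gja1 under 2. For surviving against sham Gja1 fell by 3.23 ± 0.66 (adjusted p = 0.0208, called under 3 of 5 other scalings), 1 of 8, Vim was at 2.03 ± 1.16 (0.24), and the median was -0.96 against -0.43. The surviving and dying arrays gave 0 of 8, from -1.07 for Aldoc, positive with normexp, to 1.30 for Slc1a2, with a median of 0.06 against 0.14. The sham and naïve arrays gave 0 of 8, from -0.46 for S100b to 1.05 for Aqp4, with a median of 0.34 against 0.37.

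Markers of endothelium and pericytes summed to 78.4 and 111 in naïve neurons, 122 and 93.4 after sham injury, 80.1 and 71.3 in surviving neurons and 387 and 142 in dying ones over 7 genes. Of 8 on the array 5 were well above background on each of the 8 arrays, and Tek on none. For dying against sham 2 of 7 rose by limma (13.6% of all probes), Flt1 at least 2.38-fold (3.09 ± 0.54, adjusted p = 0.00709) and Vwf by 1.94 ± 0.53 (0.0237), the lowest was Rgs5 at -1.39 ± 0.85, and the median was 0.80 against -0.46. Cldn5 and Kdr were also called higher under 4 of 5 other scalings. In surviving against sham Flt1 rose at least 1.34-fold (2.26 ± 0.54, adjusted p = 0.0365, called under 3 of 5 other scalings), 1 of 7, Cdh5 was at least 3.13-fold above sham (2.47 ± 1.04, 0.131) and Kdr lowest at -1.16 ± 0.58, positive with normexp, with a median of -0.29 against -0.43. In both comparisons 2 were tested through 1 group only. Setting surviving against dying gave 0 of 7, from -1.95 for Kdr to 0.32 for Rgs5, with a median of -1.05 against 0.14, and without dying replicate 2 Kdr, Pdgfrb and Vwf were called lower. Setting sham against naïve gave 0 of 5, from -0.93 for Rgs5, positive with normexp, to 0.75 for Vwf, with a median of 0.22 against 0.37.

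Oligodendrocyte markers summed to 211 and 292 on the naïve arrays, 288 and 334 on the sham arrays, 96 and 90.1 for surviving and 275 and 107 for dying neurons over 7 genes, and 5 were well above background on all 8 arrays. In dying against sham Mobp fell by 1.61 ± 0.55 (limma adjusted p = 0.0485, lost under all 5 other scalings), 1 of 6 where 27.2% of all probes fell, Sox10 was highest at 0.14 ± 0.60, negative with normexp, and the median was -0.69 against -0.46. For surviving against sham Mog fell by 2.99 ± 0.72 (adjusted p = 0.0317, lost under 4 of 5 other scalings), 1 of 7, Olig2 was at 1.09 ± 0.53 with no usable bound, called higher under 2 of 5 other scalings and negative with normexp, and the median was -0.75 against -0.43. Surviving against dying gave 0 of 7, from -1.49 for Mog, called without dying replicate 2, to 0.16 for Cldn11, with a median of -0.18 against 0.14. Sham against naïve gave 0 of 6, up to 1.33 for Cldn11, with a median of 0.27 against 0.37.

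Presence alone does not check the pyramidal neuron label, since 5 of 7 interneuron markers were well above background on all 8 arrays. Of 8 markers of pyramidal neurons, 7 were well above background on all 8 arrays. Their sum was 6590 and 9260 in naïve neurons, 12800 and 10800 after sham injury, 7340 and 7140 in surviving neurons and 4870 and 4370 in dying ones, led by Nrgn, a postsynaptic calmodulin-binding protein. Thy1 was the exception. Both dying arrays had lower sums than the other 6, also under 4 of 5 other scalings, and overlapped them with normexp. This rested on Nrgn: without it the sums were 1910 and 1460 in dying against 2070 and 1620 in surviving neurons, and the pairs overlapped. With normexp the sums were 290 on naïve replicate 1 and 299 on dying replicate 1, and from 2210 to 3750 on the other arrays. The normexp values given elsewhere use the same arrays, and the source of these low sums was not tested. For dying against sham 4 of 8 fell and 0 rose by limma (27.2% and 13.6% of all probes), with a median of -2.03 against -0.46: the glutamate receptor subunit Gria2 fell by 5.19 ± 0.49 (adjusted p = 0.00111), Snap25 by 3.83 ± 0.71 (0.00678), Thy1, well above background on 1 dying array, by 2.89 ± 0.79 (0.0236) and Nrgn by 1.47 ± 0.45 (0.0328). Thy1 and Nrgn lost their calls under all 5 other scalings, and Grin1 was highest at -0.02 ± 0.48, positive under 4 of 5 and called higher under 2 of them. In surviving against sham Gria2 fell by 3.47 ± 0.49 (adjusted p = 0.00714) and Snap25 by 2.67 ± 0.71 (0.0419), 2 of 8, Syt1 was highest at 0.22 ± 0.85, and the median was -0.89 against -0.43. Snap25 lost that call under all 5 other scalings. The surviving and dying arrays gave 0 of 8, from -0.04 for Grin1, positive under 3 of 5 other scalings, to 2.04 for Camk2a (adjusted p = 0.196), with a median of 1.19 against 0.14, and without dying replicate 2 Camk2a, Gria2 and Thy1 were called higher. The sham and naïve arrays gave 0 of 8, from -0.45 for Syt1, positive with normexp, to 0.97 for Gria2, with a median of 0.57 against 0.37.

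Interneuron markers summed to 539 and 776 on the naïve arrays, 671 and 772 on the sham arrays, 510 and 455 for surviving and 2000 and 494 for dying neurons over 7 genes, with the probe of Npy the brightest. Dying replicate 1 thus stood above dying replicate 2, an order that turned with normexp, at 99 and 209. Of the 7, 5 were well above background on all 8 arrays. In dying against sham Gad1 fell, at least 3.74-fold lower (limma adjusted p = 0.00534), and Pvalb fell by 1.41 ± 0.46 (0.0409, lost under all 5 other scalings), 2 of 7 where 27.2% of all probes fell, with 2 tested through 1 group only, Gad2 at least 1.13-fold above sham (1.91 ± 0.78) and a median of -0.29 against -0.46. The Gad2 bound rests on dying replicate 2, since dying replicate 1 (-0.56) lies below the faintest probe well above background on either sham array. Npy was called higher under 3 of 5 other scalings and Gad2 under 2, and Gad1 stayed called under 4. For surviving against sham Gad1 fell by 1.97 ± 0.49 (adjusted p = 0.0344, called under 2 of 5 other scalings), 1 of 7, the lowest value was -2.42 for Vip, and the median was -1.14 against -0.43. Setting surviving against dying gave 0 of 6, from -2.12 for Vip to 0.27 for Pvalb, negative after quantile normalization, with a median of -0.66 against 0.14, and without dying replicate 2 Npy, Sst and Vip were called lower. Setting sham against naïve gave 0 of 6, from -0.55 for Sst, positive with normexp, to 0.38 for Pvalb, negative under 2 of 5 other scalings, with a median of 0.30 against 0.37.

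Of the 32 calls in these lists for dying against sham, all kept their sign under each setting tried. By limma 27 stayed called on the 75th percentile, 23 after quantile normalization, 25 with the authors' values and 0 with normexp, 8 without sham replicate 1, 13 without sham replicate 2 and 18 without dying replicate 1. The 8 were Ccl12, Il1b, Gbp2, Cd68, Tyrobp, Lcn2, S100a8 and Gria2, and the 13 were these with Cmkor1, Irf1, Flt1, Snap25 and Gad1. Beside the list counts for surviving against sham stand 5.78% of all probes called higher and 10.5% lower. With the replicate number as a term 5 of the calls there stayed called, and Blr1, Ctss, Flt1, Gad1, Il1b, Irf1 and Snap25 lost theirs. After quantile normalization 6 stayed called, on the 75th percentile and with the authors' values 8, and on the median of probes above background on all arrays 9. Of the 12 calls there, 0 stayed called without any 1 of the 4 arrays or with normexp, and 12 with only the 4 arrays compared.

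**Figure D5:**
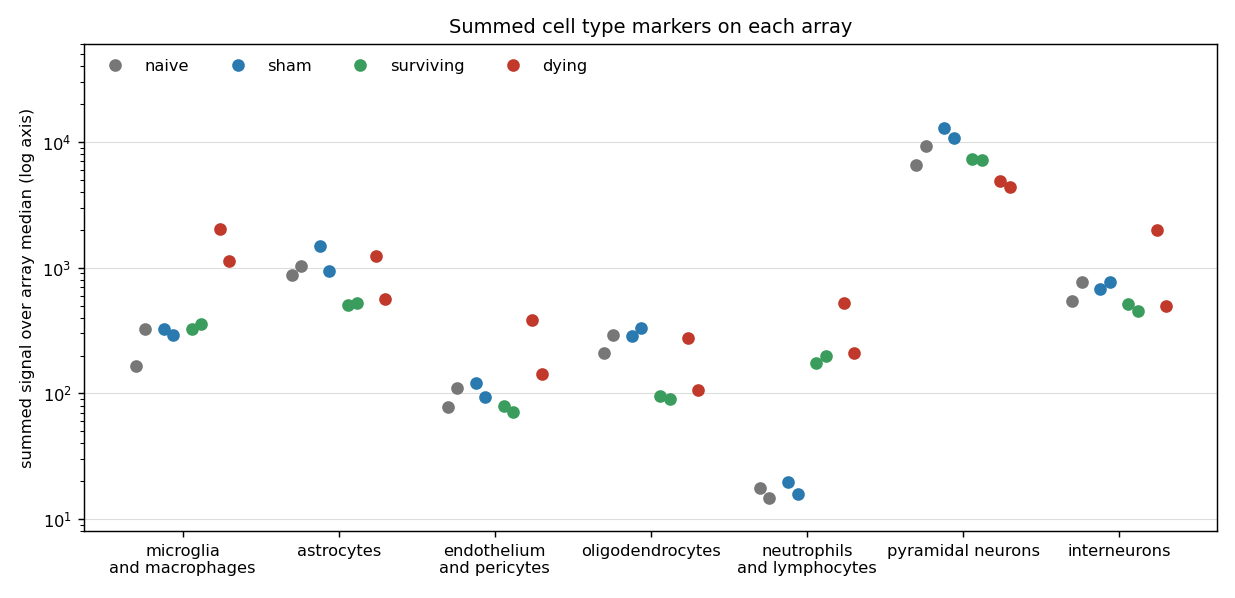
Summed signal of the markers of 7 cell types on each of the 8 arrays, in multiples of the array median on a log axis; each point is 1 array. The microglial sums of the dying arrays, 2030 and 1120, lie above those of the other 6, the pyramidal neuron sums of the dying arrays, 4870 and 4370, lie below those of the other 6 but not so without Nrgn, both orders turn to an overlap with normexp, and dying replicate 1 lies above dying replicate 2 for all 7 lists. The order of the dying replicates turns for all 7 with normexp. For pyramidal neurons it turns also after quantile normalization, with the authors' values and on the median of probes above background on all arrays.

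Genes whose levels ran most like a member's over the 8 arrays are given as a description, by Pearson r of the log2 level among 6617 named probes, for members well above background on at least 6 arrays. The points share their slides and groups. Among the genes nearest to Ccl2 were the metalloproteinase inhibitor Timp1 (r = 0.976) and the lipopolysaccharide co-receptor Cd14 (0.972). Cxcl1 was nearest to the complement gene C1qg (0.99), Eif4ebp1 (0.987) and Timp2 (0.986). Ccl19 was nearest to the kinase gene Map4k4 (0.95), the repair gene Nthl1 (0.947) and the kinase gene Lyn (0.945). Cxcl12 variant 1 was nearest to Hrasls3 (0.992), Klhl23 (0.987) and the astrocyte gene Gja1 (0.987). The brighter Cx3cl1 probe, over the 7 arrays it was read on, was nearest to Pgc (0.992), Tmem11 (0.976) and Zmynd19 (0.974).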

How the data were processed

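RNA of 8 pools of laser-captured rat CA3 neurons, 2 per group, had been measured on single-colour Agilent arrays. The spot intensity used here is the processed signal that, per the file headers, Feature Extraction had corrected for background and detrended, and the mean and local background intensity served for normexp. The deposited series table holds a signal that the authors made with GeneSpring GX. Set against the scanner values it is the processed signal over 1 constant per array, with no log and no centring of genes seen and low signals at a floor, while the methods name the 50th percentile per chip and then a median per gene. Its column medians are not 1, so how that constant and the floor came about is not given in the sources used here. They were 0.218 and 0.149 for naïve, 0.131 and 0.149 for sham, 0.256 and 0.259 for surviving and 0.212 and 0.282 for dying neurons.

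Of 43379 spots besides 1639 control spots per array, those marked non-uniform were left out (734, 6, 15, 8, 50, 35, 114 and 111 in the order naïve, sham, surviving, dying), and 0 were saturated. Signals were divided by the array median, set to a floor of 0.01, averaged per probe and put on the log2 scale. The tests used limma 3.58.1 (R 4.3.3) with all 8 arrays in the model. A probe entered a comparison if 1 or both of its groups had the 2 arrays well above background, and Benjamini-Hochberg adjustment ran over these probes at a threshold of 0.05. The code was tested on simulated data. The number of arrays limits the precision.

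A gene with several probes was read from its brightest, the others being given for members. Of 11 member probes, 10 matched a RefSeq gene of the same symbol by accession, and Ccl19 was kept by the name in the files. Named genes were all members, every other ligand or receptor well above background on both arrays of some group, and in the other lists those called or with the largest or smallest difference. Of these and of the genes nearest to a member, some are not reported here, and they stay in the counts, medians and sums of their lists. Members and lists were chosen with earlier results of these data known. The lists were other chemokine ligands, chemokine receptors, NF-kB and cytokine inducers with related genes, interferon response, and markers of microglia and macrophages, astrocytes, endothelium and pericytes, oligodendrocytes, neutrophils and lymphocytes, pyramidal neurons and interneurons.

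Alternatives were scaling to the 75th percentile, quantile normalization, normexp with an offset of 50, the authors' series values, a floor of 0.1, non-uniform spots kept, other filters on dim probes and on replicates, the mean over a gene's probes, the replicate number as a block, a fit of only the 4 arrays compared, leaving out each array, and scaling to the median of probes well above background on all 8 arrays. Sums of list genes were also taken with each gene left out and under other scalings, a step chosen after seeing the data.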

Additional observations from a re-analysis of the deposited data

How the results depend on the processing

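Over 32 results for members and 422 values under other settings, 358 kept their direction and their side of the threshold, 27 were no longer past it, 14 came past it and 23 changed sign; the cause was not tested. A scaling to the median of those probes that were above background on each of the 8 arrays, called the added scaling below, was chosen after seeing the data. In surviving against dying neurons, normexp turned Ccl2 to 0.23, Cxcl10 to 0.14 and Cxcl12 to 1.16, leaving out dying replicate 1 turned Ccl5 to 0.31 and Cxcl12 to 0.73, and Cxcl10 came to 1.95 without surviving replicate 1 and to 0.31 without dying replicate 2. In surviving against sham, Ccl19 turned to 0.24 on the 75th percentile, 0.094 after quantile normalization, 0.19 with normexp, 0.34 with the authors' values and 0.43 on the added scaling, and Cx3cl1 to -0.049 without sham replicate 2. In sham against naïve, Ccl19 turned to -1.17 without naïve replicate 1, Cxcl12 to -0.11 after quantile normalization, -0.012 without sham replicate 1 and -0.094 on the added scaling, and Cxcl1 to -0.27 on the 75th percentile, -0.12 with normexp, -0.30 with the authors' values, -9e-04 without sham replicate 2, -0.76 without naïve replicate 1 and -0.40 on the added scaling. With 1 array left out at a time, the values ran in surviving against dying from -2.64 to 0.31 for Ccl5, from -2.64 to 1.95 for Cxcl10 and from -0.98 to 0.73 for Cxcl12. They ran from -0.049 to 0.10 for Cx3cl1 in surviving against sham, and in sham against naïve from -1.17 to 3.02 for Ccl19, from -0.76 to 0.81 for Cxcl1 and from -0.012 to 0.67 for Cxcl12.

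The number of probes called in surviving against dying was 2 with the authors' values and ran from 0 to 5408 with 1 array left out. In dying against sham it was 0 with normexp, 5536 for probes well above background on all 4 arrays, and from 1857 to 12794 with 1 array left out. In surviving against sham it was 0 with normexp, 1781 for probes well above background on all 4 arrays, 10456 with only the 4 arrays compared, and from 190 to 398 with 1 array left out. Quantile normalization called 1 probe in sham against naïve. The fold filter took 303 probes in surviving against dying with normexp, 2440 with replicates within 2-fold and 6459 with no filter on replicates. It took 675, 5622 and 9748 in dying against sham under the same settings, and in surviving against sham 3205 after quantile normalization, 2437 with normexp and 8648 with no filter on replicates. Normexp left 5253 probes without overlap in sham against naïve.

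The replicate block left 9276 calls in dying against sham, 2707 in surviving against sham and 0 in the other comparisons. The samples share only a number: no source says that pools of the same number share animals, and the deviations of same-numbered arrays from their group means correlated at -0.19 to 0.07 over 15254 probes. With 1 array of a group left, its spread was taken to be that of the other groups. Signal over background limits Ccl3, Ccl4, Ccl5 and Cxcl10, which were not well above background on either sham array.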
